A study of Mus musculus with 12 samples.

Results

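Cdkn1a, the gene of the cell cycle inhibitor p21, was high on 7 of 12 arrays of mouse lung RNA and low on the other 5, and these arrays are described here by that level. The rule took the arrays above 12 on the log2 scale at 1 of the gene's 2 probe sets, whatever their treatment label. A gap separated the sets: the lowest high array, Control 3, read 13.01 and the highest low array, SIMVA-Radiation 3, read 11.18. The high set held Control 3, Radiation 1, Radiation 2, Radiation 3, SIMVA-Radiation 1, SIMVA-Radiation 2 and SIMVA 2, which read 13.01 to 13.42. The low set held Control 1 at 10.25, Control 2 at 10.69, SIMVA 1 at 11.09, SIMVA 3 at 11.11 and SIMVA-Radiation 3.

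Total RNA was taken from the lungs of wild-type mice, and each array measured the biotin-labelled cRNA of 1 sample. Control mice received vehicle and were 8 to 10 weeks old, with a weight of 20 to 25 g. Radiation mice received a single dose of 25 Gy, and their lungs were taken 6 weeks later. SIMVA mice received simvastatin, an inhibitor of cholesterol synthesis, by intraperitoneal injection of 10 mg/kg, 3 times a week for up to 6 weeks. SIMVA-Radiation mice received both treatments, with simvastatin given before and after the dose. The 3 treated groups were 8 to 12 weeks old, so that age and treatment cannot be told apart in a comparison with Control. Each of the 4 groups had 3 arrays, and nothing in the labels says that they came from separate animals, so SDs and p-values cover only how these samples varied, which may be technical variation. All 12 descriptions call the tissue that of a control animal, and that field was not used.

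The p53 protein is a transcription factor that cells stabilise when their DNA is broken, as ionising radiation does. It switches on Cdkn1a, whose product p21 binds cyclin-dependent kinases and stops the cell cycle. Its other targets include genes of cell death, of DNA repair and metabolism, and of proteins that feed back on p53, with Mdm2 the best known among the last. The lung is known for a late inflammation after irradiation, pneumonitis, that can end in scarring.

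The Cdkn1a level matched the radiation label on 9 arrays and opposed it on 3. Of 6 arrays labelled irradiated 5 were high, and SIMVA-Radiation 3 was low. Of 6 arrays labelled unirradiated 4 were low, and Control 3 and SIMVA 2 were high. All 3 Radiation arrays were high. SIMVA 1, SIMVA 3 and SIMVA-Radiation 3 were near-identical: over 10370 bright probe sets any 2 of them differed with an SD of 0.111 to 0.118, whereas the other 63 pairs of arrays differed with SDs of 0.337 to 1.017. Their mean was therefore counted as 1 low sample, beside Control 1 and Control 2. Because 2 labels meet in these arrays, the label of at least 1 of them cannot be checked from the values.

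Other differences between the arrays went partly with the sets. Values were log2 intensities, with array medians of 4.42 to 5.03 in the high set and 4.94 to 5.12 in the low set, and 5 of the 7 high arrays had medians of 4.42 to 4.88, below every low array. Control 3, Radiation 1 and Radiation 2, all in the high set, lay at 104.87 to 140.93 on the first principal component, which held 41.91% of the variance, and the other 9 arrays lay between -117.04 and -15.11. Control 3 and Radiation 1, also of the high set, carried Y-linked transcripts, with Eif2s3y at 10.24 and 10.39 against 2.75 to 3.46 elsewhere. Control 1 carried T cell, thymocyte and proliferation transcripts above every other array. Differences between the 3' and 5' control probe sets, a sign of RNA quality, overlapped between the sets: -0.09 to 0.47 and -0.10 to 0.36 for Gapdh, and 1.02 to 1.56 and 0.96 to 1.58 for beta actin. Sftpc, a surfactant protein of alveolar type 2 cells, was bright on all arrays, at 15.57 to 15.84. Other lung markers were lower on Control 1, where alveolar type 1 genes had a mean of 12.14 against 12.88 to 13.55 on the high arrays. Ciliated genes were at 7.43 there against 8.94 to 9.84, and alveolar type 2 and endothelial genes were also lowest on that array. Club cell genes were lowest on Control 2.

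A gene is said to stand apart when all 7 high arrays lay above, or all below, the 3 low samples and the means differed by at least 1 on the log2 scale, that is, 2-fold. The arrays were sorted by a measured value, so these differences are descriptions and carry no p-value. Every gene of the arrays belongs to the same contrast as the rule, and the 2 probe sets of Cdkn1a were left out. Of 11601 genes 108 (0.931%) stood apart higher in the high set and 44 (0.379%) lower. Of these, 11 higher genes had every low array below the log2 level of 4.85 used to filter dim probe sets, and 1 lower gene, Nemp2, had every high array below it. Such genes passed the filter only through their bright side, and the size of their difference rests on values near background. Eda2r, Mmp8, Inka2 and Cxcr2 are those among the 11 that are described below. Other genes, such as Psrc1, Cd177, Tet1 and Ddx23, had part of their dim side below this level, and their differences rest partly on such values. Taken as 12 single arrays, 100 of the 108 higher genes apart and 34 of the 44 lower ones did not overlap. Without regard to size, 325 genes (2.8%) did not overlap upward and 164 (1.41%) downward. Over all genes the median difference, high minus low, was 0.105, and 63.9% of genes lay above 0. With the array medians set equal, that median became 0.354, and the counts apart became 218 higher and 17 lower, so small differences of either sign are read against these shifts. Counts of list members that were higher are read against the 63.9% of all genes. Counts of members apart are read against 0.931% higher and 0.379% lower, and counts without overlap against 2.8% upward and 1.41% downward.

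The 4 lists of p53 targets together name 67 genes, and include Ddb2, known as a target in human cells. Of 55 measured members 44 were higher on the high arrays, with a median difference of 0.254. Those that stood apart higher were the cell death genes Eda2r, Phlda3, Aen and Pmaip1, and Zmat3 and Ccng1 of arrest and feedback. These were 6 members in all (10.9% of 55, beside 0.931% of all genes), and 0 stood apart lower. Without regard to size 13 members (23.6%, beside 2.8%) did not overlap upward and 0 downward. The rule used this contrast, so the counts describe these arrays and support nothing further. Bax, Gdf15 and Trp53 itself were not analysed here.

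Promoter stretches are shown for Aen and Ccng1, which held a p53 decamer, the 10-base unit of which a pair forms a full p53 site, in a window of 250 bases before to 50 after the transcription start. Sequences are from RefSeq on build GRCm38.p6, the decamer is in capitals, and each is written 5' to 3' on the strand of the gene. Looked up were 27 genes: the 6 p53 list members that stood apart, the 4 others with the largest differences, and the genes with the 10 widest intervals in each direction described below. Of these 21 had a window, and 2 of the 21, Aen and Ccng1, held a decamer with no mismatch on either strand. The decamer is its own reverse complement as a motif, so both strands give the same matches. For Ccng1, on the minus strand at chr11:40755287-40755536, the decamer begins at base -185 from the start, and the 250 bases before the start are given. For Aen, on the plus strand at chr7:78895927-78895956, it begins at base 11 of the transcript from 1 of its 2 listed starts, and 30 bases around it are given.
Ccng1: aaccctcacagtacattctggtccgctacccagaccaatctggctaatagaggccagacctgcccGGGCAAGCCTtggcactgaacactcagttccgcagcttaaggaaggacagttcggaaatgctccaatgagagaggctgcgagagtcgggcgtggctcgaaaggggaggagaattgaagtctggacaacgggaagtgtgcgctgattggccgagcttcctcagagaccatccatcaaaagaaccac
Aen: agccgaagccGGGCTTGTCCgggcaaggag
Of 32851 windows 2745 (8.4%) held such a decamer, and 24 (0.0731%) held a pair 0 to 13 bases apart, and none of these was a window of the 21 genes. A match describes the letters in the window and is no measure of binding.

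Among the cell death genes, Eda2r, a receptor of the tumour necrosis factor family, differed most. It read 7.49 on Control 3, 8.02, 8.43 and 8.39 on the Radiation arrays, 7.67 and 7.75 on SIMVA-Radiation 1 and 2, and 8.28 on SIMVA 2. On the low arrays it was at 3.54, 3.91, 4.15, 4.75 and 4.33 for Control 1, Control 2, SIMVA 1, SIMVA 3 and SIMVA-Radiation 3, all below the filter level of 4.85. The means were 8.01 ± 0.38 (SD, n = 7) and 3.95 ± 0.44 (SD, n = 3). The computed difference of 4.05 is set against a level not told from background, so no fold is given. The empty interval between the 7 high and 3 low samples was 3.08, wider than for any other gene of the 4 p53 lists. Phlda3, whose product holds back the survival kinase Akt at the membrane, read 10.77 to 11.25 (median 11.01) on the high arrays. It read 8.82 to 9.36 on the 5 low arrays, and the means of 11.03 ± 0.18 (SD, n = 7) and 9.0 ± 0.17 (SD, n = 3) differed by 2.03. Its high arrays lay close together beside the distance between the sets.

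Aen, a nuclease that promotes apoptosis, was highest on Radiation 3 at 10.25 and Control 3 at 10.21 and lowest within the high set on SIMVA-Radiation 2 at 9.62. The low arrays read 8.01, 7.66, 8.65, 8.30 and 8.47 in the order given above. Its means were 9.88 ± 0.26 (SD, n = 7) and 8.05 ± 0.41 (SD, n = 3), a difference of 1.83, and of its 3 probe sets 2 stood apart and all 3 did not overlap. Pmaip1, which encodes the BH3-only death protein Noxa, read 9.63 to 10.62 (median 10.36) on the high arrays and 8.52 to 9.10 on the low ones, with means of 10.27 ± 0.35 (SD, n = 7) and 8.87 ± 0.30 (SD, n = 3) that differed by 1.41. Its lowest high arrays were SIMVA-Radiation 1 and 2, at 10.01 and 9.63. Bbc3, the gene of the related protein Puma, had means 0.87 apart, 7.59 ± 0.39 (SD, n = 7) and 6.73 ± 0.16 (SD, n = 3). Its samples did not overlap, but SIMVA 3 taken alone, at 7.23, lay above SIMVA-Radiation 1 at 7.06. Ei24, another member that did not overlap, differed by 0.58. Of the 13 measured genes of this list 10 were higher, the median was 0.46, and 6 did not overlap upward, beside 2.8% of all genes.

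Of the arrest and feedback genes, Zmat3, an RNA-binding zinc finger protein, read 10.34 on SIMVA-Radiation 1 to 11.15 on Radiation 2 (median 10.79) across the high set. The low arrays read 9.0, 9.56, 9.46, 9.24 and 9.34, and the means of 10.76 ± 0.26 (SD, n = 7) and 9.30 ± 0.29 (SD, n = 3) differed by 1.46. Ccng1, which encodes cyclin G1, a partner of a phosphatase that acts on Mdm2, was bright on every array. It read 13.54 to 14.04 (median 13.65) against 12.02 to 12.67, with means of 13.74 ± 0.20 (SD, n = 7) and 12.32 ± 0.33 (SD, n = 3), a difference of 1.41. All 3 of its probe sets stood apart. Gadd45a, a stress protein that slows the cell cycle, differed by 0.54 without overlap, the third member of this list to do so. Of the 13 measured members 11 were higher, with a median of 0.22.

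Mdm2, which marks p53 for breakdown, differed by 0.53 and overlapped: Control 1 read 9.52 and Radiation 2 read 9.48. Btg2, an antiproliferative gene, was at -0.80, and overlapped, since SIMVA 2 at 11.66 lay above the near-identical arrays at 11.16 to 11.29. These 2 genes were chosen after their values were seen, to show that the list did not move as 1 block. In the heat map of the 55 genes, some change colour at the line between the sets and most do not.

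**Figure D1:**
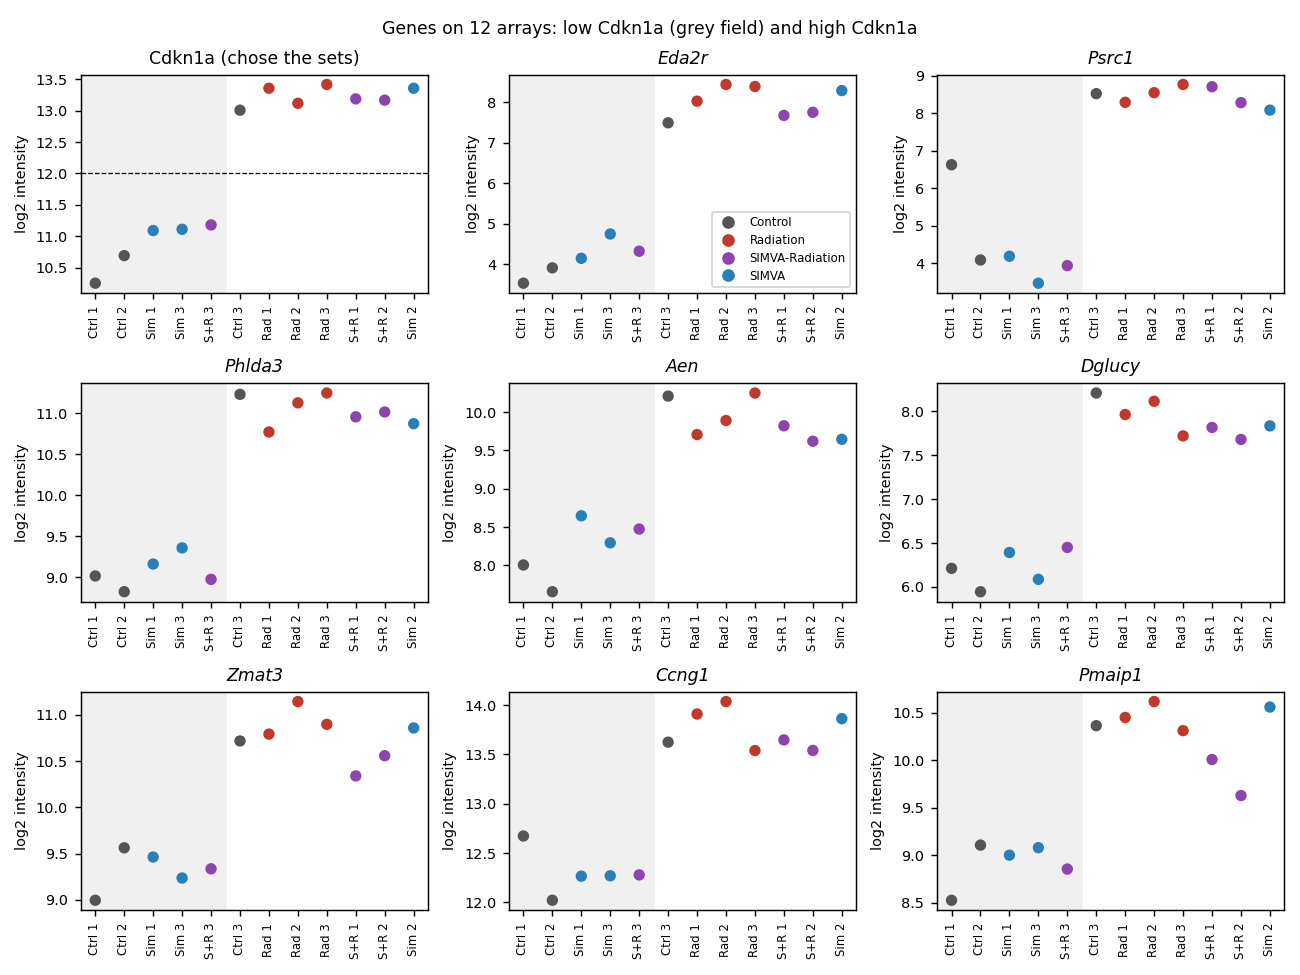
Log2 intensity of Cdkn1a and 8 other genes on each of the 12 arrays, 1 point per array, coloured by label. The 5 low arrays are in the grey field and the dashed line is the threshold of 12 that chose the sets; for the 8 other genes every high array lies above every low array, for example 7.49 to 8.43 against 3.54 to 4.75 for Eda2r.

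Repair and metabolism genes were higher in 14 of 17 cases, with a median of 0.24 and 3 that did not overlap, beside 2.8% of all genes. No member of this list stood apart. Sesn2, a stress sensor that holds back mTORC1, had means of 7.48 ± 0.27 (SD, n = 7) and 6.52 ± 0.23 (SD, n = 3), 0.96 apart. Taken as single arrays the sets touched, since SIMVA 3 read 7.22 and SIMVA-Radiation 1 read 7.16. Its second, dimmer probe set differed by 1.84 and stood apart. Cpt1c, a carnitine palmitoyltransferase, had a difference of 1.0 and overlapped, as Radiation 1 at 6.85 lay below the near-identical arrays at 7.06. Polk, a DNA polymerase that copies past lesions, differed by 0.51 and Aldh4a1, an enzyme of proline breakdown, by 0.20, both without overlap. Ddb2, a sensor of ultraviolet damage and a p53 target in human cells, ran the other way at -1.09 and overlapped.

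Secreted and surface genes were higher in 9 of 12 cases, with a median of 0.22. Sulf2, which trims sulphate from heparan chains, differed by 0.69 and was the only one of them without overlap. Epha2, an ephrin receptor, had a difference of 0.93 that came from Control 1 at 6.30 and Radiation 3 at 9.78. The other 10 arrays lay between 8.26 and 8.57, so the sets overlapped. Leaving out Control 1 turned this list's median to -0.08.

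**Figure D2:**
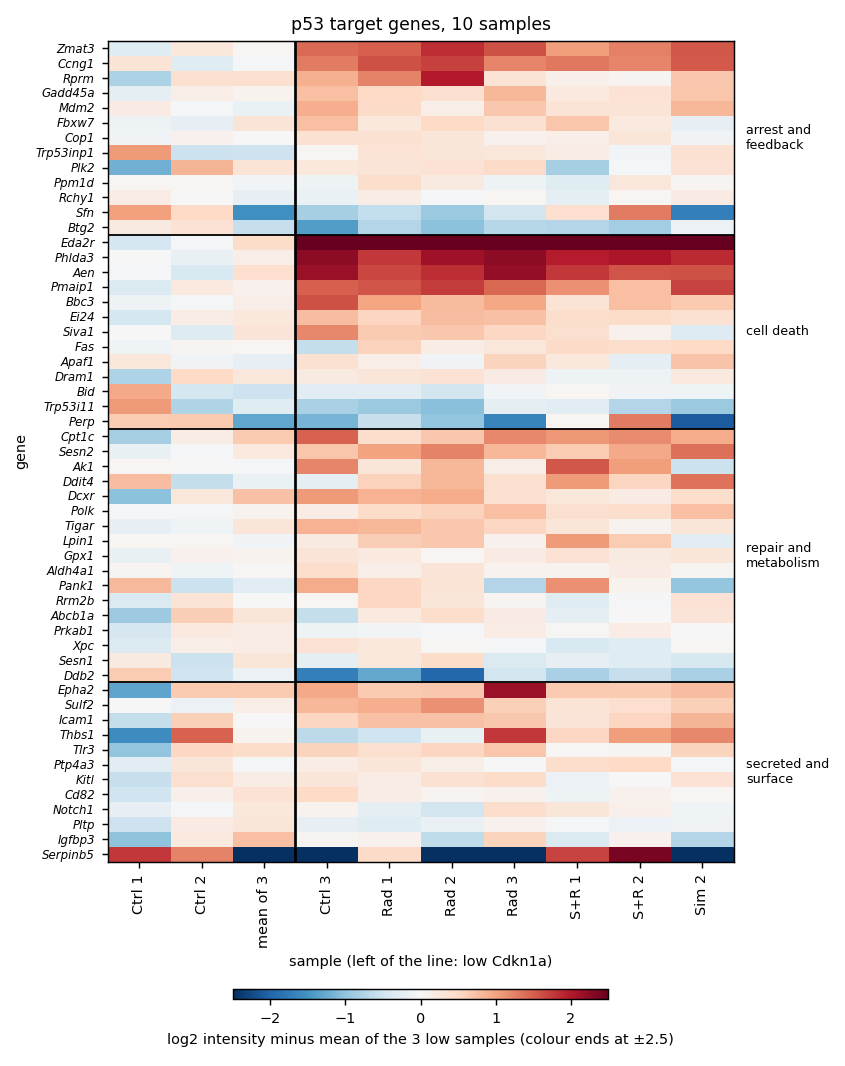
Log2 intensity of the 55 measured p53 target genes (rows, in 4 lists) in 10 samples (columns), minus the mean of the 3 low samples; red is higher, blue lower, and colours end at 2.5. Eda2r, Phlda3, Aen, Pmaip1, Zmat3 and Ccng1 are red on all 7 high arrays right of the line, and Ddb2 and Btg2 are blue there.

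Beyond the p53 lists, the 10 genes with the widest empty interval between the sets upward were Eda2r, Cd177, Mmp8, Phlda3, Psrc1, Dglucy, Ccl9, Aen, Wfdc21 and Ms4a6d. Psrc1, a microtubule-binding protein of the spindle that is also known as a p53 target, read 8.09 to 8.77 (median 8.53) on the high arrays. On the low arrays it was at 6.63 on Control 1 and 3.46 to 4.18 on the other 4, which is below the filter level. Its means of 8.46 ± 0.25 (SD, n = 7) and 4.86 ± 1.54 (SD, n = 3) differed by 3.60, a size that rests partly on these dim arrays. Dglucy, a mitochondrial enzyme that acts on D-glutamate, read 7.68 to 8.21 (median 7.83) against 5.95 to 6.45. Its means were 7.90 ± 0.20 (SD, n = 7) and 6.16 ± 0.19 (SD, n = 3), a difference of 1.75, and it had the narrow spread of Phlda3 and Ccng1. Inka2 and Ephx1, chosen after their values were seen because p53 is known to act on both, stood apart, Ephx1 by 1.19. Ephx1, an epoxide hydrolase, was bright on all arrays, at 12.88 to 13.32 against 11.41 to 12.33. Inka2, an inhibitor of the kinase Pak4, was at 4.5 to 6.04 on the high arrays and 3.48 to 3.61 on the low ones, which were below the filter level.

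The other 5 genes of widest interval are known from myeloid cells, and their high arrays spread far more. Cd177, a surface protein of neutrophils, read 7.53 to 10.54 (median 8.09) on the high arrays and 3.71 to 5.49 on the low ones, a difference of 4.27 between 8.56 ± 1.06 (SD, n = 7) and 4.29 ± 0.92 (SD, n = 3). Mmp8, the collagenase of neutrophil granules, was at 12.07 on Radiation 1, 10.90 on SIMVA 2, 8.76 and 7.65 on SIMVA-Radiation 1 and 2, and 5.94 to 6.77 on the remaining 3 high arrays. The low arrays lay together at 3.94 to 4.11. Its means of 8.34 ± 2.37 (SD, n = 7) and 4.0 ± 0.09 (SD, n = 3) differed by 4.33, a size that again rests on low arrays below the filter level. In RNA from whole lung, more cells of a type and more RNA per cell cannot be told apart.

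Ccl9, a chemokine of macrophages, read 10.73 to 12.32 (median 11.24) against 9.18 to 9.57, with means of 11.40 ± 0.59 (SD, n = 7) and 9.33 ± 0.20 (SD, n = 3). Wfdc21, a small secreted protein of the whey acidic protein family, differed by 3.13 and ran from 9.03 on Radiation 3 to 12.42 on Radiation 1 within the high set. Ms4a6d, a membrane protein of macrophages, differed by 2.26, with 9.31 to 11.10 against 7.39 to 8.34. Some Fc receptor genes, chosen after their values were seen, stood apart in the same direction: Fcgr4 by 3.27, Fcgr1 by 1.58 and Fcgr3 by 1.46. Other members of that family are not described here. The low arrays of Fcgr4 read 3.43 to 5.33, so its size rests partly on values below the filter level.

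**Figure D3:**
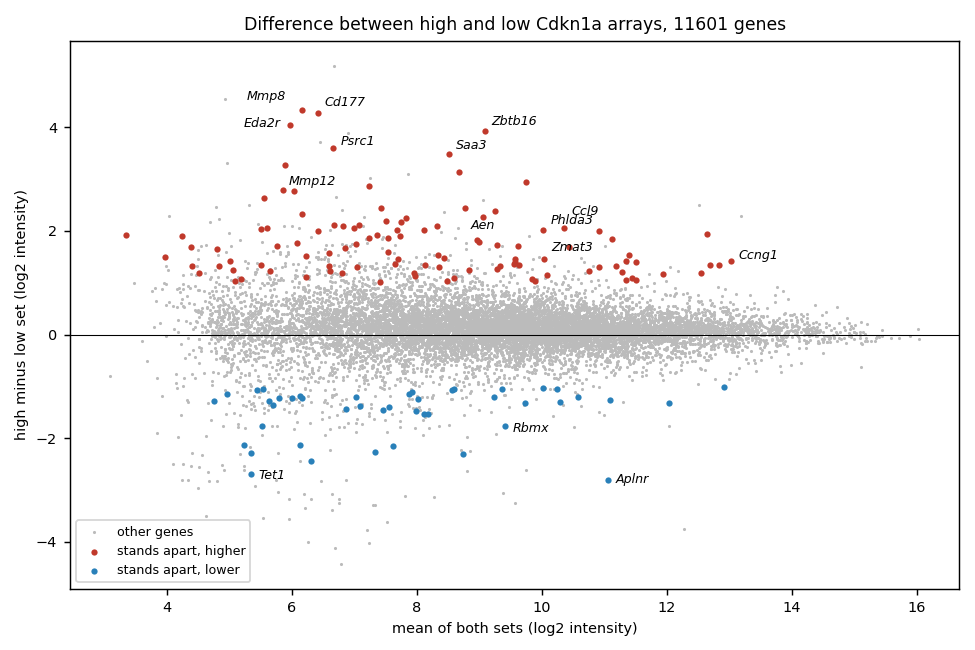
Difference between the high and low sets (vertical, log2) against the mean of both sets (horizontal, log2 intensity) for 11601 genes, Cdkn1a left out. The 108 genes that stand apart higher are red and the 44 that stand apart lower are blue; Mmp8, Cd177 and Eda2r lie above 4, and Aplnr at -2.82 is a bright gene among the blue.

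Of 3384 kept probe sets without a single gene symbol, 234 stood apart lower and 16 higher. Among the 11601 genes it was the other way, with 44 lower (0.379%) and 108 higher (0.931%). The gene counts leave out these probe sets, of which a larger share stood apart lower. The excess of higher over lower therefore holds only for genes with a symbol. Aplnr, the receptor for apelin on endothelial cells, had the widest interval downward. It read 10.35 on Control 3, 9.07, 9.80 and 10.23 on the Radiation arrays, 8.82 and 9.44 on SIMVA-Radiation 1 and 2, and 9.85 on SIMVA 2. The low arrays were at 11.47 on Control 1, 13.20 on Control 2 and 12.66 to 12.79 on the near-identical arrays. The means of 9.65 ± 0.57 (SD, n = 7) and 12.47 ± 0.90 (SD, n = 3) differed by -2.82, that is, 7.05-fold, and both of its probe sets stood apart. Of 15 endothelial markers 10 were higher, a share near the 63.9% of all genes. Their median was 0.19, or -0.24 without Control 1, and none stood apart.

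The other 9 of the 10 genes with the widest intervals downward followed with differences of -2.69 to -1.23. Tet1, which oxidises methylated DNA, was at -2.69, with 3.0 to 5.18 against 5.61 to 8.08. Fancb, of the DNA crosslink repair complex, was at -1.23, with high arrays at 5.25 to 5.81 and low arrays at 6.39 to 6.92. Dis3l2, an RNA exonuclease, was at -1.43 and Robo2, a guidance receptor, at -1.76. Ddx23 at -2.29 and Rbmx at -1.77 take part in splicing, and their lowest arrays were Control 3, Radiation 1 and Radiation 2, the arrays apart on the first principal component, where Rbmx read 7.55, 7.77 and 6.88 against 9.27 to 11.13 elsewhere. Nemp2 at -1.28, Dnah8 at -1.23 and Srcap at -1.23 complete the group, the last with 1 of 2 probe sets apart. Without those 3 arrays 24 genes stood apart lower, of which 12 were among the 44.

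The labels Control, SIMVA-Radiation and SIMVA each held arrays of both sets. Control 3 exceeded the mean of Control 1 and 2 by 3.76 for Eda2r, 2.31 for Phlda3, 2.38 for Aen, 1.44 for Zmat3, 1.28 for Ccng1 and 1.55 for Pmaip1. SIMVA-Radiation 1 and 2 exceeded SIMVA-Radiation 3 by 3.38, 2.01, 1.25, 1.11, 1.31 and 0.96 for the same 6 genes in the same order. SIMVA 2 exceeded the mean of SIMVA 1 and 3 by 3.84, 1.61, 1.17, 1.51, 1.59 and 1.52. Aplnr ran the other way by -1.98, -3.53 and -2.92 in the 3 labels. Over the 108 genes that stood apart higher, the median difference was 1.55 within Control, 1.29 within SIMVA-Radiation and 1.71 within SIMVA. Over the 44 lower genes it was -1.98 within Control but -0.45 and -0.52 within the other 2. These values carry no test, since the arrays on each side were chosen by Cdkn1a. SIMVA and SIMVA-Radiation also share the near-identical RNA on the low side. Genes that stood apart were picked for having all high arrays on 1 side of the low samples. Their sign was therefore fixed within Control and nearly so within SIMVA and SIMVA-Radiation, and only the sizes are described.

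The genes upstream of p53 and those that p21 acts on did not stand apart. Of 16 measured DNA damage signalling genes 4 were higher, with a median of -0.18 beside 0.105 for all genes. This median became 0.03 with the array medians set equal and 0.01 without Control 1. For all genes it was 0.354 and 0.06 under these changes, so the list lay below all genes each time. Chek2, a checkpoint kinase, differed by 0.94, and Mdm4, an inhibitor of p53, by -1.02, both with overlap. Of 17 cyclins, kinases and inhibitors around p21, 5 were higher, with a median of -0.22, or 0.03 under either of these changes. These values too lay below the medians of all genes. Ccnd1, cyclin D1, differed by 0.92 with overlap, at 12.71 to 13.87 against 11.85 to 12.79, and Ccnd2, cyclin D2, by 0.42 without overlap.

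Cell cycle genes were lower in 31 of 32 cases, with a median of -0.77 and none apart, and this rested on Control 1. The mean of the list was 10.52 on Control 1 and 6.91 on Control 2, 6.06 on the near-identical arrays and 6.00 to 8.17 on the high arrays. Cdk1, the mitotic kinase, read 10.47 on Control 1, 5.90 on Control 2 and 4.22 on the mean of the near-identical arrays, against 4.04 to 6.92. With that array left out the cell cycle median was 0.57. T and NK cell markers moved with it, at -1.29 with Control 1 and 0.35 without, and so did thymocyte markers, at -1.67 and 0.26.

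Among the other lists, neutrophil markers had the largest median, 2.29, and all 9 measured members were higher. The members Camp, Mmp8 and Cxcr2, a chemokine receptor, had every low array below the filter level and passed the filter only through high arrays. The filter thus favoured their higher sign, and the count of 9 rests partly on it. With no filter on low values the median was 1.91 over 11 members. With a filter on at least 6 of 12 arrays it was 2.29 over 7 members. Of the 9 members Mmp8 and Cxcr2 stood apart. The single arrays of Cxcr2 touched, with Radiation 2 at 3.56 and SIMVA-Radiation 3 at 3.64. The mean of the list was 7.21, 6.78 and 7.5 on the low samples. On the high arrays it ran from 6.84 on Radiation 2 and 8.90 on Control 3 to 11.39 on Radiation 1 and 11.46 on SIMVA 2, so the sets overlapped. S100a9, a calcium-binding protein of neutrophils, was 13.65 to 15.27 on 6 high arrays and 10.17 on Radiation 2, against 10.71 to 11.78 on the low arrays. Ngp, a granule protein, ran from 3.28 to 13.01 within the high set, the widest spread of the neutrophil genes named. Without Control 3, Radiation 1 and Radiation 2 the median was 2.76 and 8 of the 9 stood apart, beside 181 (1.56%) of all genes in that setting. Radiation 2 was the only high array with a list mean within the range of the low samples. Leaving it out removes that overlap, so the 8 are no support for a difference between the sets.

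Macrophage markers were higher in 10 of 12 cases, with a median of 0.73. Ctsk, a protease, stood apart by 1.25 and Adgre1, the F4/80 antigen, by 1.09, where 0.931% of all genes stood apart higher. Marco, a scavenger receptor of alveolar macrophages, ran the other way at -1.44 and overlapped, with 2.10 on Radiation 3 and 8.09 on SIMVA-Radiation 1. Inflammatory mediators were higher in 12 of 14 cases, with a median of 0.67. Saa3, an acute phase protein, stood apart by 3.49 and reached 13.77 on SIMVA-Radiation 1. Of 14 genes known from the secretions of senescent cells 9 were higher, a share near the 63.9% of all genes. Their median was 0.63, and Mmp12, the macrophage elastase, stood apart by 2.80. Timp1, a protease inhibitor, differed by 2.06 with overlap. Interferon-stimulated genes had a median of 0.49, and Oas1a, an antiviral enzyme, stood apart by 1.49 of the 15.

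Glucocorticoid and fasting response genes were higher in 15 of 16 cases, with a median of 0.93. The members apart were Zbtb16, Fam107a, Lcn2, Mt1 and Mt2, 5 of 16 beside 0.931% of all genes. The single arrays of Mt1 overlapped, with the lowest high array at 11.28 and the highest low array at 11.33. Zbtb16, a transcription factor that glucocorticoids induce, read 8.63 on SIMVA 2 and 10.22 to 12.08 on the other high arrays, against 6.27 to 7.89. Its means were 11.06 ± 1.23 (SD, n = 7) and 7.13 ± 0.82 (SD, n = 3), a difference of 3.94, and all 3 of its probe sets stood apart. Fam107a, an actin-binding stress gene, differed by 2.94 and Lcn2, an iron-carrier protein of epithelium and neutrophils, by 1.94. The list mean was 11.16 on Control 3 and 11.63 to 12.26 on the other high arrays, against 10.31, 10.69 and 11.05.

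**Figure D4:**
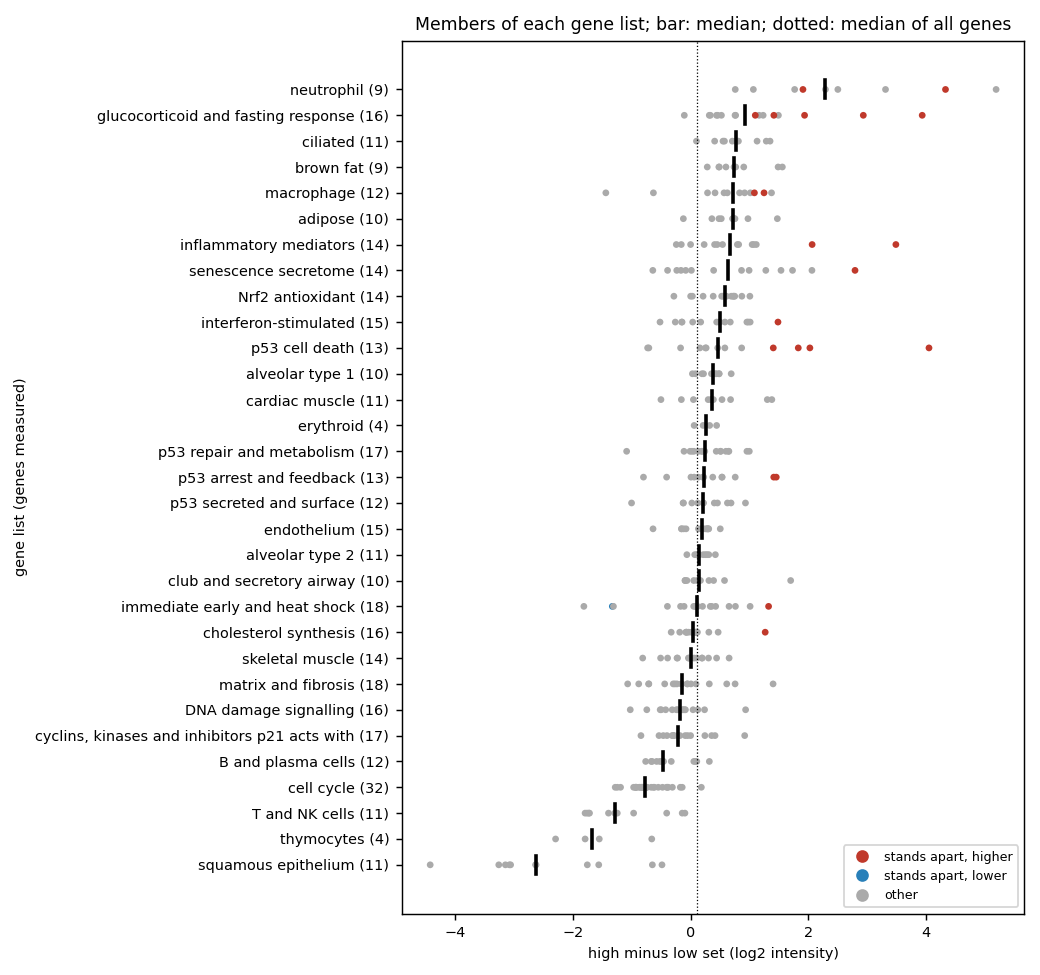
Difference between the sets (horizontal, log2 intensity) for each measured member (point) of 31 gene lists, with the list median as a bar and the median of all genes, 0.105, as a dotted line. Neutrophil markers lie farthest to the right at a median of 2.29 and squamous epithelium farthest to the left at -2.63; red points stand apart higher and the blue point is Egr1.

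Immediate early and heat shock genes were mixed, with 12 of 18 higher and a median of 0.11, or -0.18 without Control 1. Hsph1, a heat shock protein, stood apart by 1.33 and Egr1, an early response factor, by -1.33. The single arrays of Hsph1 overlapped, with SIMVA 2 at 11.06 and SIMVA-Radiation 3 at 11.08. Antioxidant genes of Nrf2 were higher in 13 of 14 cases with a median of 0.58, and 0.26 without Control 1, and none stood apart. Matrix and fibrosis genes were lower in 12 of 18 cases at a median of -0.15. With the array medians set equal it was 0.10, beside 0.354 for all genes. Lox, a collagen crosslinker, was at 1.40 and Ccn1, a matricellular protein, at -0.88, both with overlap. Cholesterol synthesis genes, the pathway simvastatin blocks, had a median of 0.04, or -0.03 without Control 1, and Pmvk, phosphomevalonate kinase, stood apart by 1.27.

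Markers of the cells of the lung wall differed less. Alveolar type 1 genes were higher in 10 of 10 cases at a median of 0.39 and alveolar type 2 genes in 10 of 11 at 0.15, and club cell genes had a median of 0.14. Without that array, Control 1, these medians were -0.06, -0.12 and -0.05. Ciliated cell genes had a median of 0.77, and 0.16 without Control 1. None of these members stood apart.

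Markers of tissue around the lung varied over a wide range, and none of their members stood apart. Squamous epithelium had a list mean of 12.38 on Control 1 and 12.02 on Control 2, 4.49 on the near-identical arrays, and 4.06 to 12.64 on the high arrays. The difference had a median of -2.63, and none of its 11 members stood apart. Skeletal muscle ran from 4.72 to 12.29 within the high set, with low samples at 11.48, 11.17 and 5.2, and had a median of 0.02. Brown fat had a median of 0.74, with 5.55 to 10.10 on the high arrays and 9.52, 5.25 and 6.12 in the low samples. Adipose genes had a median of 0.72. Of these Scd1, a fatty acid desaturase also made in alveolar type 2 cells, did not overlap, at 14.68 to 15.23 against 14.33 to 14.60, a difference of 0.52. Cardiac muscle genes had a median of 0.36. B and plasma cell genes, with a median of -0.47, and 4 erythroid genes, with a median of 0.27, overlapped as well. What part these tissues have in the differences above was not tested.

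**Figure D5:**
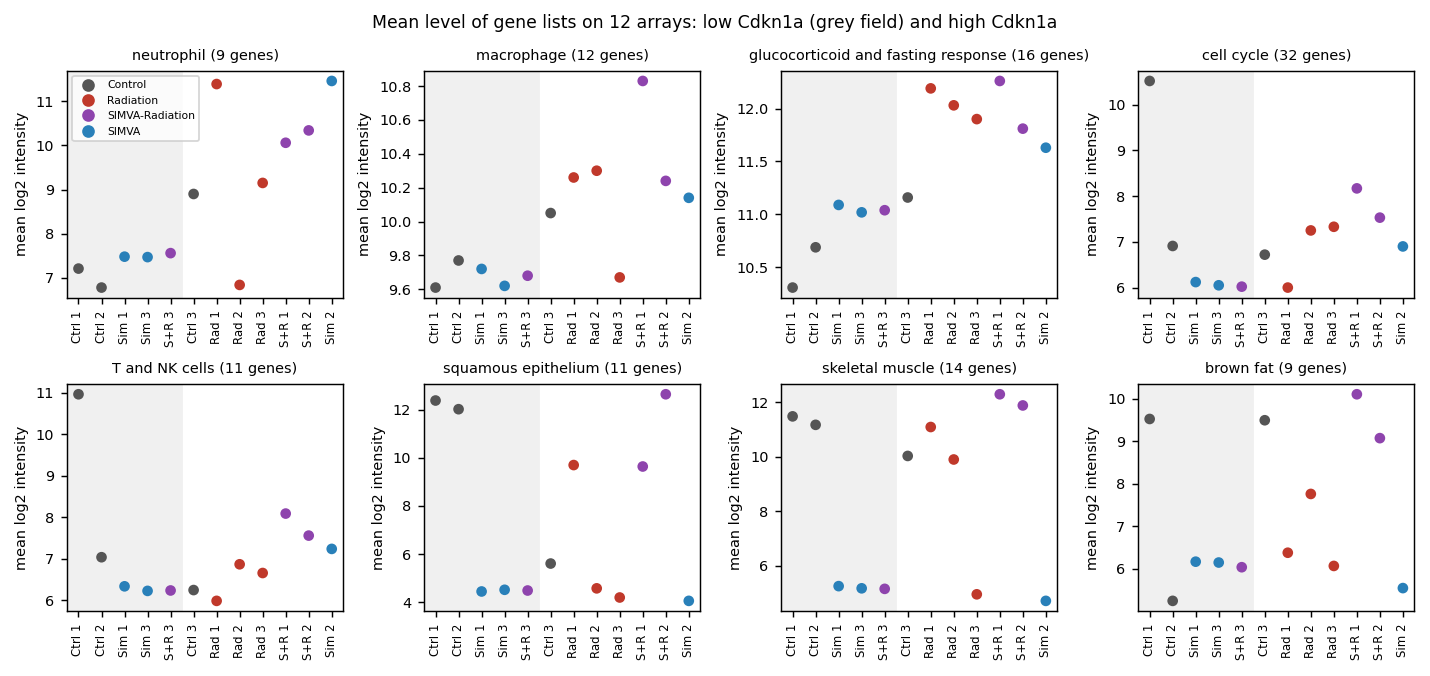
Mean log2 intensity of the measured members of 8 lists on each of the 12 arrays, 1 point per array coloured by label, with the 5 low arrays in the grey field. Glucocorticoid response genes sit at 10.31 to 11.09 on the low arrays and 11.16 to 12.26 on the high ones, while squamous epithelium and skeletal muscle split the high arrays themselves, for example 4.72 to 12.29 for skeletal muscle.

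Whether radiation, as labelled, changed these genes was tested without use of Cdkn1a, with limma on 11 samples, SIMVA 1 and 3 counted as 1. SIMVA-Radiation 3, near-identical to these, stayed in its labelled group, so that the same or nearly the same RNA lay on both sides of the contrast and the distinct samples were fewer than 11. For irradiated minus unirradiated 0 of 11602 genes (0.0%) passed at an adjusted p of 0.05, with 151 at an unadjusted p under 0.05 and a lowest adjusted p of 0.999. Without the 3 near-identical arrays limma called 0 as well, with 300 at an unadjusted p under 0.05. Eda2r had means of 7.43 on irradiated and 5.67 on unirradiated labels, a difference of 1.76 ± 0.99 (SE). The difference was 0.80 ± 0.56 for Phlda3, 0.79 ± 0.48 for Aen, 0.58 ± 0.39 for Zmat3, 0.57 ± 0.39 for Ccng1 and 0.41 ± 0.39 for Pmaip1. Psrc1 was at 1.57 ± 1.15 and Aplnr at -1.49 ± 0.83, with limma's adjusted p at 0.999 for all 8 of them. The sides of 9 of 12 arrays are the same in both comparisons, so the signs are no independent evidence.

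By the labels, 9 of 13 arrest, 10 of 13 cell death, 14 of 17 repair and 11 of 12 secreted genes lay above 0, with medians of 0.11, 0.29, 0.20 and 0.20 beside 0.0507 for all genes, and 0 passed. The glucocorticoid list lay above 0 in 15 of 16 cases with a median of 0.81, and 0 passed. The share of all genes above 0 was not taken for the labels, so these counts are descriptions only. Without Control 3 the test called 1 gene by limma, Aoc1, a diamine oxidase, at 2.24 ± 0.19 (SE) with an adjusted p of 0.019. Aoc1 also stood apart between the Cdkn1a sets, by 2.86, though SIMVA 2 at 7.80 lay within the 7.66 to 7.84 of the near-identical arrays.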

How the data were processed

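RNA from 12 mouse lung samples was measured on Affymetrix mouse arrays. The authors deposited a table of log2 intensities, processed with MAS5 and GCRMA per the submitters' processing notes, and neither the versions of both nor which of them gave these values is stated in the sources used here. The deposited table comprises 45101 probe sets, of which 34945 have 1 gene symbol in the platform annotation, 932 several and 9160 none listed. A probe set was kept above a log2 value of 4.85 on at least 3 arrays, and the brightest kept probe set stood for a gene, which left 11602 genes. Array data give no count depth, and the number of arrays limits the precision.

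The arrays were split at a log2 value of 12 for Cdkn1a, and SIMVA 1, SIMVA 3 and SIMVA-Radiation 3 were averaged. Since that split uses a measured value, it was described by means, SDs and overlap only. The labels were compared with limma 3.58.1 in R 4.3.3 (lmFit and eBayes with trend, group means, Benjamini-Hochberg adjustment over all genes), on 11 samples. Tables and figures used Python 3.11.15 with pandas 2.3.3, numpy 2.4.6 and matplotlib 3.10.9. The computations were tested on simulated data.

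The arrays, genes and lists were chosen with earlier results of these data known. Named genes were the p53 list members apart and the 4 largest differences among the rest, the 10 widest intervals in each direction over all genes, up to 4 largest differences in each other list, members of those lists that stood apart, and sex-linked and tissue markers. Other p53 list members, Ccnd2 and the Fc receptors were named after their values were seen. Alternatives were other normalizations (array medians set equal, quantile), filters and summaries of probe sets, the near-identical arrays kept apart or left out, arrays left out in turn or together, and for the labels a replicate block and array weights.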

Additional observations from a re-analysis of the deposited data

Results flagged for a closer look

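Of 58 results tested over the 7 high arrays, 3 had a single array far from the rest by Dixon's criterion, where chance alone would be expected to give about 1 in 20. Epha2, an ephrin receptor, was at 9.78 on Radiation 3 and 8.26 to 8.57 on the other 6 high arrays. The mean of the matrix and fibrosis genes was 11.13 on Radiation 1 and 11.69 to 11.91 on the other 6. The mean of the inflammatory mediators was 10.37 on SIMVA-Radiation 1, where Saa3 was also highest, and 9.17 to 9.47 on the other 6. The cause of these values was not tested.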

How the results depend on the processing

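Over 20 other settings, Eda2r, Phlda3, Aen, Zmat3, Ccng1, Pmaip1, Psrc1, Dglucy, Cd177, Mmp8, Ccl9, Wfdc21, Ms4a6d and Aplnr stood apart in all 20. Of the other genes named, Fancb did not with array medians set equal, Tet1 not under quantile normalization, and Robo2 under neither. Dis3l2 and Rbmx did not without Control 3, Radiation 1 and Radiation 2 together, Ddx23 not with the near-identical arrays kept apart, and Nemp2 and Ephx1 not without Control 1. Dnah8 and Srcap stood apart in 16 of 20. Leaving out whole samples cannot make sets overlap that did not, so in those settings only a difference under 1 could end the standing. The exception is the setting without Control 3, SIMVA 2 and SIMVA-Radiation 3 together. There the averaged low sample lost SIMVA-Radiation 3 and its value changed, so overlap could arise. The genes that stood apart in all 20 were also chosen because they stood apart, so that count is a description and no support. Of 539 recomputed differences of the 27 named genes, 520 stayed within 1 SD, 19 moved further and none reversed. Counts of genes apart, 108 higher and 44 lower, depended on the setting. With the array medians set equal they were 218 and 17, of which 105 and 15 were among the original genes. Without the 3 near-identical arrays they were 475 and 87, and with these arrays kept apart 27 stood apart lower. Without Control 3, Radiation 1 and Radiation 2 together they were 181 and 24, and without the arrays with Y-linked transcripts 28 stood apart lower. With 1 array left out at a time they ran from 113 to 218 and from 32 to 82. The highest of both came without Control 2, and without Control 1 there were 74 lower.

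With the array medians set equal, the medians of the p53 lists became 0.47 for arrest, 0.71 for cell death, 0.49 for repair and 0.47 for secreted genes, as the median of all genes went from 0.105 to 0.354. Quantile normalization gave 0.37 for repair. With no filter on low values, arrest was at 0.38 and cell death at 0.27. Cell death was at 0.34 with the near-identical arrays kept apart, 0.62 without them and 0.38 without the arrays with Y-linked transcripts. Leaving out single arrays gave 0.20 to 0.32 for arrest, 0.40 to 0.59 for cell death, 0.22 to 0.38 for repair and -0.08 to 0.39 for secreted genes, the last reversed without Control 1. The cause was not tested.

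The label comparison called 0 genes in every setting except without Control 3, where it called 1 (range 0 to 1), Aoc1, with 1086 genes at an unadjusted p under 0.05. With array weights limma called 0, with 2289 at an unadjusted p under 0.05 and a lowest adjusted p of 0.182. Same-numbered samples of different groups correlated at -0.26 to 0.41 over 18 pairs, with 8 over 0.1, and differently numbered ones at -0.52 to 0.42. Whether replicate numbers pair the samples is not settled by these values. With the replicate block limma called 0 genes, with 298 at an unadjusted p under 0.05 and a lowest adjusted p of 0.955.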

Other observations

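Of 3384 kept probe sets without a single gene symbol, 16 stood apart higher on the high Cdkn1a arrays and 234 lower. Of the 11601 genes, 108 (0.931%) stood apart higher and 44 (0.379%) lower. As a share of their totals, more of the probe sets than of the genes stood apart lower, and fewer higher. The more frequent direction was thus the opposite one. Xist, the RNA that silences the second X chromosome, read 2.45 and 2.5 where Y-linked transcripts were found, that is, for Control 3 and Radiation 1. It read 12.29 for Radiation 2, below the 13.64 to 14.54 of the remaining 9.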
